A study of Mus musculus with 12 samples.

Results

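Cytosolic ribosomal protein genes were examined in the growing and the mature epithelium of mouse mammary glands. The members were all probes whose gene symbol on the array platform is Rpl or Rps with a digit, Rplp with a digit, or Rpsa, leaving out the Rps6 kinases (6 probes) and pseudogenes. This gave 79 of 17589 probes, which name 63 of 12913 genes, since Rpl5 alone has 17 probes and every other member has 1. The 63 genes comprise 19 of the small subunit, 35 of the large subunit, 3 of the P stalk and 6 paralogues (Rpl22l1, Rpl39l, Rpl3l, Rpl7l1, Rps27l and Rpl36al). Terminal end buds, the growing tips of the ductal tree, were hybridised on 6 arrays, and mature ducts on another 6 arrays. Epithelial RNA was labelled with Cy5 on every array, and RNA of distal stroma, the fat pad free of epithelium, with Cy3. All tissue was microdissected from glands of mice 5 weeks old that express green fluorescent protein from the beta-actin promoter, a label that marks tissue for dissection and not a cell type. No sex, strain or pooling of animals is given in the labels. Whether the arrays stand for separate animals is not stated. The p-values thus reflect only how these arrays vary, which may be technical, and precision is limited by having 6 arrays a group.

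The ribosome joins a small subunit, which reads the messenger RNA, to a large subunit, which forms the peptide bond. Each cytosolic ribosomal protein is made in step with the others, assembled with ribosomal RNA in the nucleolus and exported to the cytoplasm. Their messengers start with a run of pyrimidines, the terminal oligopyrimidine tract, through which mTOR signalling controls their translation. Growing and dividing cells need many new ribosomes, and the growth of terminal end buds makes these genes of interest in this tissue. A messenger level says nothing of the translation of these messengers.

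All values are ratios of epithelium to stroma taken as log2, so 0 means equal signal and 1 means 2-fold more in epithelium. No source used here names the base of the logarithm. If it were natural, folds would change but no sign or test. Epithelial markers matched the labelled tissues: all 6 luminal genes and all 5 measured basal genes were higher than stroma in both structures. Stromal markers were less uniform. Of 7 adipocyte genes, 6 were lower than stroma in terminal end buds and 2 in ducts. Of 7 fibroblast genes, 2 were higher than stroma in terminal end buds and 4 in ducts, and 0 were lower in either. Markers of dividing cells averaged 1.08 to 2.18 on terminal end bud arrays and 0.02 to 1.20 on duct arrays, and 8 of 9 were higher in terminal end buds than in ducts; their part in the results was not tested. All 6 endothelial genes were below stroma in both structures. Of 4 macrophage genes, 1 was above and 2 were below stroma in terminal end buds and 1 was above in ducts, and of 8 lymphocyte genes 1 was above and 2 were below in terminal end buds and 1 was above in ducts. Over all probes the ratios were wider on terminal end bud arrays, with SDs of 0.535 to 0.635, than on duct arrays, with SDs of 0.380 to 0.484. In tissue pieces, fewer cells of a type and less RNA per cell cannot be told apart.

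Most ribosomal protein genes gave more signal in terminal end buds than in stroma. By limma, 45 of the 63 genes rose and 3 fell at a Benjamini-Hochberg adjusted p under 0.05, which is 71.4% and 4.76% of them, against 23.2% and 20.4% of all 17589 probes. Counted by probe, 60 of 79 rose and 3 fell. The median ratio of the genes was 0.72, against 0.01 over all probes, and 22 genes were at least 2-fold higher. The rise took in 13 small subunit genes, 26 large subunit genes, 2 stalk genes and 4 paralogues. Stroma was only ever the second channel, and the labels do not say whether its RNA was 1 pool. It was taken as 1 control sample, and its spread was not measured. The labels show the same dye for epithelium throughout, and any effect of dye on a probe is part of its ratio.

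Ducts gave a like count over distal stroma. Of the 63 genes, 44 rose and 2 fell (69.8% and 3.17%), against 16.0% and 12.2% of all probes, and by probe 60 rose and 2 fell. The median ratio was 0.79, against 0.02 over all probes, and 17 genes were at least 2-fold higher. Both structures were read against distal stroma and share an estimate of the spread, so their counts are not independent. By call, 40 genes were higher in both structures, 5 in terminal end buds alone, 4 in ducts alone, 1 was lower in both and 10 were called in neither. The 45 genes above 0 on all 6 terminal end bud arrays compare with 21.7% of all probes, and the 45 above 0 on all 6 duct arrays compare with 17.9%.

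**Figure D1:**
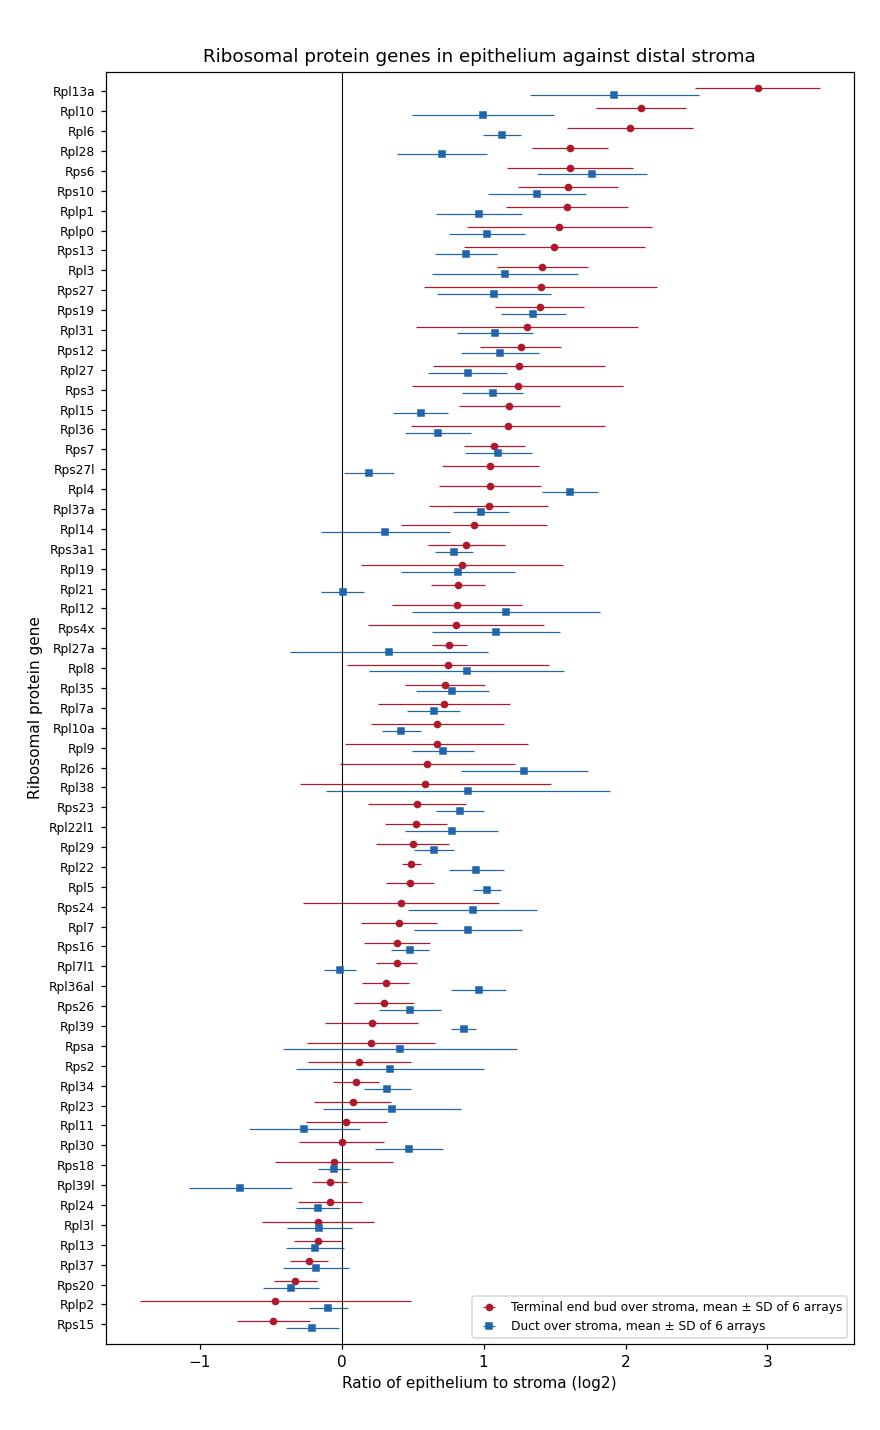
Ratio of epithelium to stroma (log2, horizontal axis) for each of the 63 genes (vertical axis, ordered by the terminal end bud mean), as mean ± SD of 6 arrays. Rpl13a lies highest at 2.93 in terminal end buds and 1.92 in ducts, and 45 and 44 genes were called above 0 in the 2 structures.

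Rpl13a, a large subunit protein that mammalian cells also release to silence inflammatory messengers, had the highest ratio in both structures. It lay at 2.24, 2.89 and 3.44 (lowest, median and highest array) in terminal end buds and at 0.98, 1.91 and 2.83 in ducts. Its mean was 2.93 ± 0.44 (SD, n = 6) in terminal end buds, 7.62-fold over stroma with limma adjusted p = 1.72e-08, and 1.92 ± 0.60 (SD, n = 6) in ducts, 3.79-fold with limma adjusted p = 4.59e-06. Rpl10, an X-linked protein that joins the large subunit late in its maturation, followed in terminal end buds at 2.11 (SE 0.15, limma adjusted p = 5.22e-08). Rpl6 stood at 2.03 (SE 0.12, limma adjusted p = 9.57e-09) and Rpl28 at 1.61 (SE 0.11, limma adjusted p = 3.08e-08), both of the large subunit.

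Behind Rpl13a, the highest ratios in ducts were those of Rps6, Rpl4, Rps10 and Rps19. Rps6, the protein that S6 kinase phosphorylates when mTOR is active, lay at 1.06, 1.47 and 2.19 in terminal end buds and at 1.35, 1.68 and 2.22 in ducts, lowest, median and highest array. Its mean ratio was 1.61 (SE 0.15) and 1.76 (SE 0.15), with limma adjusted p of 7.04e-07 and 1.35e-06, and the groups overlapped. Rps10 averaged 1.60 in terminal end buds and 1.37 in ducts, and Rps19, whose loss in human causes Diamond-Blackfan anaemia, averaged 1.39 and 1.35. Rpl4, which lines the peptide exit tunnel, was at 1.04 in terminal end buds and 1.61 in ducts. Rpl26, next to that tunnel, was at 0.60 in terminal end buds and 1.29 in ducts. The terminal end bud value of Rpl26 was 0.37 without replicate 2 (limma adjusted p = 0.0606), on which it read 1.78 against 0.08 to 0.62 on the other arrays.

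A few members ran against the rest. Rps15 lay between -0.78 and -0.03 on all terminal end bud arrays, with a mean of -0.48 (SE 0.09, limma adjusted p = 0.000375), and between -0.43 and 0.02 on duct arrays (mean -0.21, limma adjusted p = 0.0946, and 0.0439 when terminal end bud replicate 2, part of the common variance estimate, was left out). Rps20 was the member lower in both structures, at -0.33 (SE 0.07, limma adjusted p = 0.00182) in terminal end buds and -0.36 (SE 0.07, limma adjusted p = 0.00192) in ducts. Both proteins sit in the head of the small subunit. Rpl37 was at -0.23 in terminal end buds (limma adjusted p = 0.0256), a call lost without any one of terminal end bud replicates 2, 3, 4 or 6 (adjusted p of 0.055 to 0.079). Rpl13 stood at -0.17 in terminal end buds and -0.19 in ducts and passed in neither. It passed in terminal end buds without replicate 6 (-0.22, limma adjusted p = 0.0463) and in ducts without duct replicate 6 (-0.24, limma adjusted p = 0.0375) or under quantile normalization (-0.23, limma adjusted p = 0.0289). Rpl11 was at 0.03 and -0.26 and passed in neither.

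The P stalk, the arm of the large subunit that recruits elongation factors, was split. Its base protein Rplp0 averaged 1.53 in terminal end buds and 1.02 in ducts, and Rplp1 averaged 1.59 and 0.97, all called higher than stroma. Rplp2, the partner of Rplp1, did not pass in either structure, at -0.47 (SE 0.24, limma adjusted p = 0.135) in terminal end buds and -0.09 (SE 0.24, limma adjusted p = 0.819) in ducts. Its terminal end bud value rests on replicate 3, which read -2.42, while the other 5 arrays read -0.16 to 0.07. Every member but Rpl5 was read by a single probe, and probe sequences were not used here. RefSeq annotates pseudogenes named after 49 of the 63 genes, and cross-reading of their transcripts was not tested.

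The start sites of ribosomal protein genes are shown here because the members are known for the pyrimidine tract there, a feature that the choice of members did not use. Promoter windows came from RefSeq on GRCm38.p6, which held 54 of the 63 genes. A run of at least 8 C or T on the gene's strand, between 30 bases before and 40 after the annotated start, was found for 39 of the 54 (72.2%), against 28.7% of all 27025 genes in the table. The letters CTTTCC on that strand, which can form part of such runs, were found in that window for 14 (25.9%), against 3.81%. Within the whole 300 bases on either strand, CGGAAG, the core of ETS factor motifs, was found for 37 (68.5%, against 18.8%), GGGCGG, an Sp1 box, for 33 (61.1%, against 38.2%) and TATAAA for 5 (9.26%, against 15.7%). Each line below gives 30 bases before and 30 after the start, 5′ to 3′ on the gene's strand, with the longest run of at least 8 C or T in capitals. Rpl13a, Rpl28 and Rpl15 were higher in terminal end buds than in ducts, Rpl4 and Rpl5 were lower, and Rps6 and Rps10 had the highest small subunit ratios over stroma in both. Rpl10 and Rpl7l1 are shown as members with no such run.
Rpl13a, chr7:45128716-45128775, minus strand: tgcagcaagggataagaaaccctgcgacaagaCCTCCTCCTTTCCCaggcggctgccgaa
Rpl28, chr7:4792935-4792994, plus strand: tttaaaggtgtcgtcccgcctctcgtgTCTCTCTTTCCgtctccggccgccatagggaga
Rpl15, chr14:18270957-18271016, minus strand: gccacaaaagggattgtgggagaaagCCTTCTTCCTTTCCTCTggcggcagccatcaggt
Rpl4, chr9:64173357-64173416, plus strand: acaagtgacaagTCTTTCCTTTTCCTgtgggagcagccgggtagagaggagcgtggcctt
Rpl5, chr5:107900498-107900557, plus strand: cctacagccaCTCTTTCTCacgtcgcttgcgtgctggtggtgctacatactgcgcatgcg
Rps6, chr4:86857338-86857397, minus strand: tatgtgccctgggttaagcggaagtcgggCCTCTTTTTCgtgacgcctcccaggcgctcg
Rps10, chr17:27635215-27635274, minus strand: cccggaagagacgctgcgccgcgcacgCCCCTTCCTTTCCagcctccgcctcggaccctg
Rpl10, chrX:74270786-74270845, plus strand: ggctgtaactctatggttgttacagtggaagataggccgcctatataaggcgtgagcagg
Rpl7l1, chr17:46782627-46782686, minus strand: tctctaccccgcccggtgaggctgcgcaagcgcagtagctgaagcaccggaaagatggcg

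The runs of Rpl28, Rpl15, Rps6 and Rps10 span the annotated start, that of Rpl13a begins 3 bases into the transcript, and those of Rpl4 and Rpl5 lie upstream. Annotated starts can be off by some bases, and a match is a description of these letters and no more. The 39 genes with a run had a median ratio of 0.67 in terminal end buds and 0.78 in ducts, and the 15 without one had 0.81 and 0.89. The 14 genes with CTTTCC had medians of 0.94 and 0.93, and the 40 without it had 0.53 and 0.75. These medians are descriptions without a test.

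Set against each other, terminal end buds and ducts differed in a minority of these genes, in both directions. By limma at an adjusted p under 0.05, terminal end buds had 10 of the 63 genes higher and 6 lower (15.9% and 9.52%), against 8.32% and 10.4% of all probes. The median difference was 0.02 on the log2 scale, but -0.10 with a common median absolute deviation and -0.20 under quantile normalization, so its sign is not settled, and single genes spanned -0.69 to 1.11. All 10 higher and 6 lower genes belonged to the large subunit, the stalk or the paralogues. The paralogues, counted apart, hold Rps27l, a form of the small subunit gene Rps27, which was called higher. Of the 19 other small subunit genes 0 passed with limma, and 2 (Rps13 and Rps15) had an unadjusted p under 0.05. Leaving out 1 array brought in Rps13 (terminal end bud replicate 3), Rps15 (replicate 2) and Rps24 (replicate 6). Other alternatives called Rps23 lower (quantile normalization), Rps13 higher (array weights, and consecutive slides as a block), and Rps3 higher and Rps24 lower (slides up to 193). With the arrays brought to a common median absolute deviation, 6 rose and 7 fell (background 6.05% and 8.55%), and under quantile normalization 6 rose and 9 fell (5.57% and 7.16%), so higher genes were 46.2% and 40% of those called under these scalings and 62.5% of those called without them. Each of these scalings kept 12 of the 16 calls, and Rpl10, Rpl13a, Rpl15 and Rplp1 dropped out. Within slides up to number 193, 2 arrays a group, 5 rose and 3 fell, and within slides from 196 on, 4 arrays a group, 8 rose and 5 fell.

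**Figure D2:**
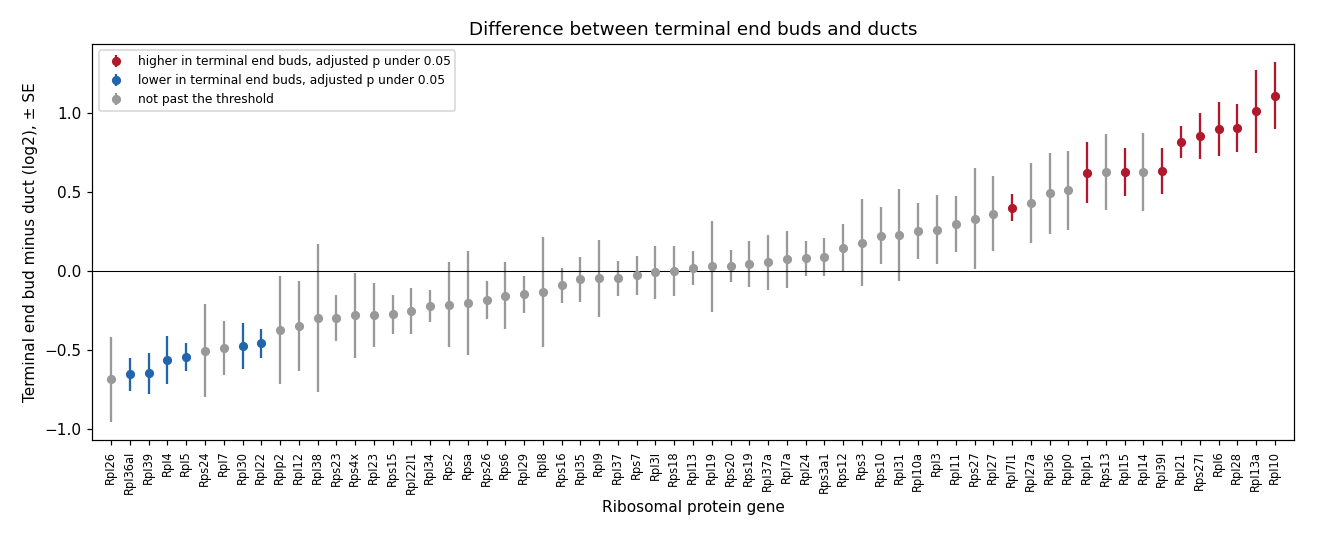
Difference of terminal end bud and duct mean ratios (log2, vertical axis, ± SE of the limma fit over 12 arrays) for the 63 genes in order of size. Red points are the 10 genes higher and blue points the 6 genes lower in terminal end buds at an adjusted p under 0.05, within a range of -0.69 (Rpl26, not called) to 1.11 (Rpl10).

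Rpl10 showed the widest difference. It lay at 1.65, 2.11 and 2.58 in terminal end buds and at 0.10, 1.04 and 1.57 in ducts, lowest, median and highest array, so the groups did not overlap. The difference was 1.11 (SE 0.21, limma adjusted p = 0.00219), and 0.75 under quantile normalization (adjusted p = 0.0522). Rpl13a differed by 1.01 (SE 0.26, limma adjusted p = 0.0145) with overlapping groups, and by 0.52 with a common median absolute deviation (adjusted p = 0.349).

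The 6 genes that stayed higher in terminal end buds under both scalings were Rpl6, Rpl28, Rpl21, Rps27l, Rpl39l and Rpl7l1. Rpl6 lay at 1.60 to 2.65 in terminal end buds and at 0.96 to 1.25 in ducts, a difference of 0.90 (SE 0.17, limma adjusted p = 0.00194). On slides up to 193 alone its difference was 0.68 (limma adjusted p = 0.106). Rpl28 lay at medians of 1.58 in terminal end buds and 0.75 in ducts, a difference of 0.90 (SE 0.15, limma adjusted p = 0.000938). Rpl21 was at 0.62 to 1.08 in terminal end buds and centred on stroma in ducts, at -0.15 to 0.26, a difference of 0.82 (SE 0.10, limma adjusted p = 9.83e-05). In each of these 3 large subunit genes, every terminal end bud array was above every duct array. Such a gap was found for 6 of 63 genes in this direction (9.52%), against 4.42% of all probes, and for 3 in the other (4.76%, against 5.79%).

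Rpl15 and Rplp1 made up the 10 together with the genes above. Rpl15 differed by 0.63 (SE 0.15, limma adjusted p = 0.00942). Rplp1 differed by 0.62 (SE 0.19, limma adjusted p = 0.0345), but its adjusted p lay between 0.0745 and 0.0791 without any one of terminal end bud replicates 2, 4 or 6 or duct replicates 4 or 5. Its stalk partner Rplp0 differed by 0.51 (limma adjusted p = 0.198), and by 0.72 without terminal end bud replicate 3 (adjusted p = 0.0176).

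The genes lower in terminal end buds than in ducts were Rpl36al, Rpl39, Rpl4, Rpl5, Rpl30 and Rpl22, and all 6 passed under both scalings too. All but Rpl39 and Rpl30 were still called above stroma in terminal end buds, and Rpl39 was too without terminal end bud replicate 3 (0.30, limma adjusted p = 0.012). Rpl22, an RNA-binding large subunit protein, lay at 0.43, 0.48 and 0.62 in terminal end buds and at 0.82, 0.88 and 1.33 in ducts, with no overlap and a difference of -0.46 (SE 0.09, limma adjusted p = 0.0025). Rpl4 differed by -0.56 (SE 0.15, limma adjusted p = 0.0178). It did not pass on slides up to 193 alone or on slides from 196 on alone (limma adjusted p of 0.102 to 0.138). Rpl22 did not pass on slides up to 193 alone (-0.655, limma adjusted p = 0.0889). Rpl30, which falls outside the rule for named genes and was added after its values were seen, differed by -0.47 (SE 0.14, limma adjusted p = 0.0339). Its adjusted p lay between 0.0505 and 0.073 without any one of terminal end bud replicates 3 or 4 or duct replicates 2, 3, 5 or 6. Rpl26 had the lowest difference, -0.69 (SE 0.27, limma adjusted p = 0.0999). It passed without terminal end bud replicate 2 (-0.92, adjusted p = 0.0056) and without duct replicate 4 (-0.84, adjusted p = 0.0423). Rps24 differed by -0.50 (limma adjusted p = 0.288), and by -0.78 without terminal end bud replicate 6 (adjusted p = 0.0158).

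Of the 6 paralogues, terminal end buds had 3 above and 1 below the ducts, where all probes gave 8.32% and 10.4%. Rps27l, a form induced by p53 in mammalian cells, lay at 0.49 to 1.55 in terminal end buds and at -0.07 to 0.39 in ducts, with no overlap and a difference of 0.85 (SE 0.14, limma adjusted p = 0.000892). Its parent Rps27 was called above stroma in both, at 1.40 in terminal end buds and 1.07 in ducts, and differed by 0.33 (SE 0.32, limma adjusted p = 0.551). Rpl7l1 lay at 0.21 to 0.55 in terminal end buds and at -0.23 to 0.12 in ducts, a difference of 0.40 (SE 0.08, limma adjusted p = 0.00423). Its parent Rpl7 was at 0.40 in terminal end buds and 0.89 in ducts, a difference of -0.49 (limma adjusted p = 0.0644) that passed without terminal end bud replicate 2 (adjusted p = 0.0349) and without duct replicate 3 (adjusted p = 0.0393). On slides up to 193 alone, Rps27l differed by 0.64 (limma adjusted p = 0.124) and Rpl7l1 by 0.37 (limma adjusted p = 0.247). The test of a difference between a paralogue and its parent was not made.

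Rpl39 and Rpl39l, a form known from testis, went opposite ways between the structures. Rpl39 lay at -0.22, 0.21 and 0.75 in terminal end buds and at 0.72, 0.88 and 0.95 in ducts, a difference of -0.65 (SE 0.13, limma adjusted p = 0.00299). Rpl39l lay at -0.26 to 0.08 in terminal end buds and at -1.25 to -0.18 in ducts, a difference of 0.63 (SE 0.14, limma adjusted p = 0.00684), and was the paralogue lower than stroma in ducts (-0.72, limma adjusted p = 0.000122). On slides up to 193 alone the difference of Rpl39l was 0.19 (adjusted p = 0.631) and that of Rpl39 was -0.42 (adjusted p = 0.424).

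The remaining paralogues moved less, or without their parent on the array. Rpl22l1 averaged 0.52 in terminal end buds and 0.78 in ducts, both called above stroma, and differed by -0.25 (limma adjusted p = 0.288), while its parent Rpl22 differed by -0.46 as given above. Rpl3l, the striated muscle form, did not pass in either structure, at -0.17 and -0.16, while its parent Rpl3, near the peptidyl transferase centre, was at 1.41 and 1.15, both called. Rpl36al lay at 0.12 to 0.54 in terminal end buds and at 0.72 to 1.30 in ducts, with no overlap and a difference of -0.65 (SE 0.10, limma adjusted p = 0.000617). Its parent Rpl36a was not among the probes analysed here. Rps4x, the X-linked small subunit gene, was at 0.81 in terminal end buds and 1.09 in ducts, both called above stroma.

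**Figure D3:**
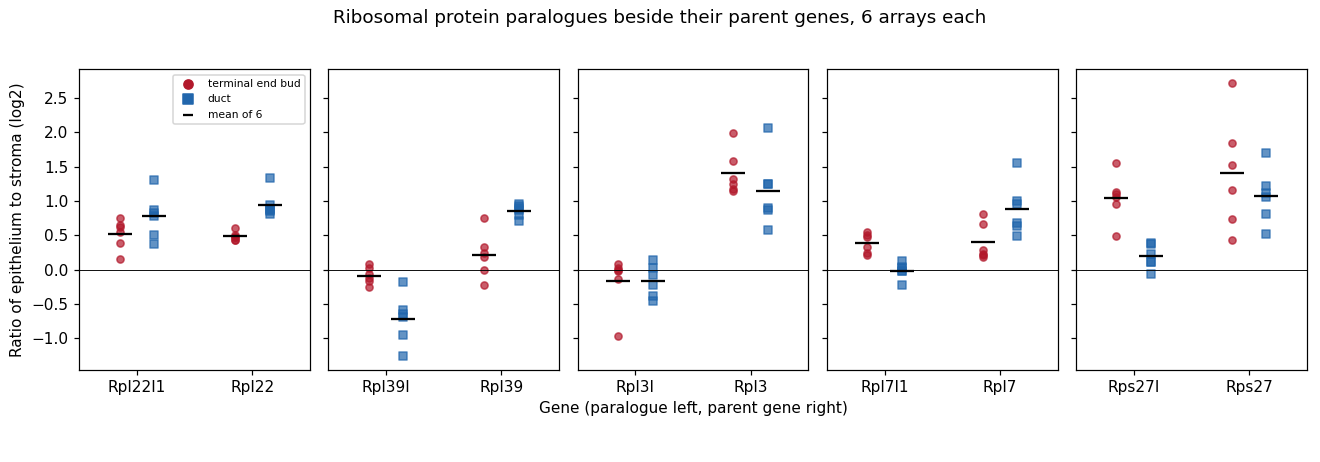
Ratio to stroma (log2, vertical axis) on every array for 5 paralogues (left of each panel) and their parent genes (right), with terminal end bud arrays as circles, duct arrays as squares and bars at the mean of 6. Rps27l and Rpl7l1 have no overlap between the structures, and the Rpl39l and Rpl39 differences have opposite signs, 0.63 and -0.65.

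Rpl5, which with Rpl11 and 5S ribosomal RNA forms a particle that can bind Mdm2, was read by 17 probes with 1 accession. They fall into 4 runs of 4 consecutive even probe numbers and a single probe. All 17 were higher than stroma in ducts, at 0.98 to 1.74, and 16 of 17 in terminal end buds, where they ranged more widely, from 0.20 to 1.46. In 3 runs terminal end buds averaged 0.37, 0.62 and 0.27 against 1.01, 1.09 and 1.18 in ducts, and all 12 probes were called lower in terminal end buds. In the run numbered 10560 to 10566 they averaged 1.34 against 1.44 in ducts, and its 4 probes did not pass, with differences of -0.21 to -0.04. The single probe 13642 averaged 1.22 against 1.74 and did not pass. Differences lay between -0.96 and -0.83 in the run 12072 to 12078, between -0.78 and -0.51 in the run 10182 to 10188 and between -0.52 and -0.39 in the run 11694 to 11700, so the last 2 overlap. Over the 17 probes the difference had a median of -0.52, and none was positive. In counts of genes it is read from the first probe in the table, which lay at 0.29 to 0.68 in terminal end buds and at 0.87 to 1.12 in ducts.

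**Figure D4:**
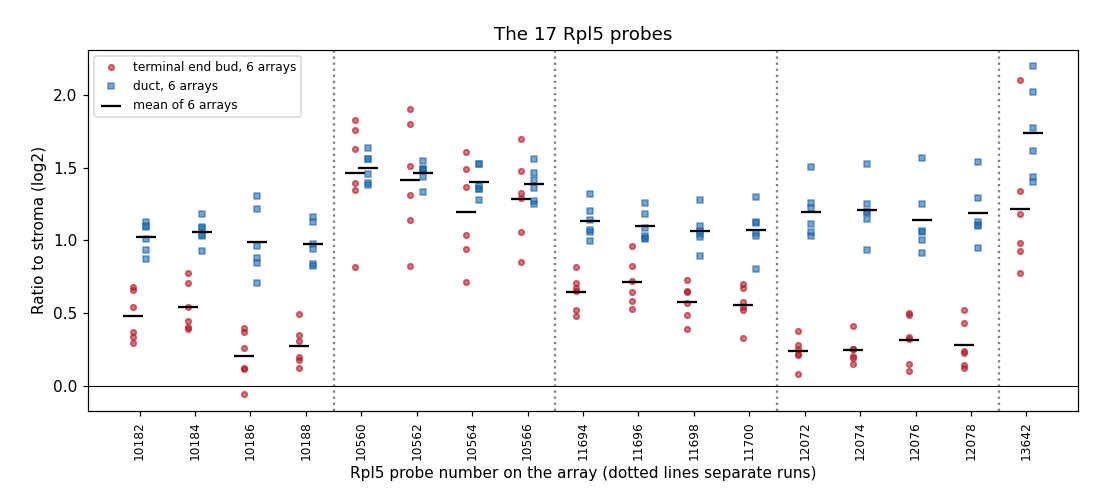
Ratio to stroma (log2, vertical axis) of the 17 Rpl5 probes in order of probe number (horizontal axis), with 6 terminal end bud arrays as circles, 6 duct arrays as squares and bars at their means. The structures lie apart in 3 runs and overlap in the run 10560 to 10566.

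Some members with neighbouring probe numbers also shared their pattern from array to array. Deviations from the group means over the 12 arrays correlated with r = 0.97 between Rplp0 and Rps13, 0.96 between Rpl36 and Rps13 (probes 12160 and 12162), 0.95 between Rps2 and Rpsa and 0.96 between Rpl19 and Rpl27. Other close pairs were less alike, with r = 0.24 between Rpl10a and Rpl24, 0.25 between Rps12 and Rps7 and 0.50 between Rps15 and Rps16 (probes 17392 and 17394). The 14 pairs of members within 50 probe numbers had a median r of 0.68, and the 1730 pairs over 1000 numbers apart had 0.25, against 0.02 and 0.00 for all probes at these distances. These correlations describe arrays that the pairs share, and pairs are not independent. Of the 10 genes higher in terminal end buds, 7 have probe numbers from 15516 to 17081, a range chosen after seeing the values. Both ends of the range are called genes, Rpl15 and Rpl13a, so the member counts within it are partly fixed by that choice. Within that range 7 of 9 member genes were higher, against 3 of the other 54, which held all 6 lower genes, while all 1540 probes of that range had 8.77% higher and 9.94% lower. What probes of neighbouring number share on the slides was not tested.

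The level of the whole set varied between arrays of 1 structure more than between structures. The median over the 63 genes was 0.44, 1.08, 0.30, 0.52, 0.62 and 0.74 on terminal end bud replicates 1 to 6, and 0.74, 0.88, 0.59, 0.59, 0.86 and 0.62 on duct replicates 1 to 6. The mean of these medians was 0.618 ± 0.274 (SD, n = 6) in terminal end buds and 0.714 ± 0.136 (SD, n = 6) in ducts, so the groups overlapped and their means differed by less than either SD. Terminal end bud replicate 2 was the highest of its 6 arrays for 34 of 63 genes, and duct replicate 2 was the highest of its 6 for 25. These arrays are slides 192 and 193. Fibroblast markers, of which 2 of 7 were above stroma in terminal end buds and 4 of 7 in ducts, were highest on the same arrays, averaging 0.79 on terminal end bud replicate 2 against -0.01 to 0.38 on the others, and 1.25 on duct replicate 2 against 0.18 to 0.57, and their part in the result was not tested. Without both arrays, an alternative added after seeing the data, the terminal end buds had 9 genes above and 7 below the ducts, 14 of the 16 calls among them, and 44 were higher than stroma in ducts.

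Ribosomal proteins of mitochondria, which build a separate ribosome for the few proteins coded by mitochondrial DNA, are given for comparison. Against stroma, terminal end buds had 5 of the 68 such genes higher and 40 lower, and ducts had 2 higher and 47 lower, where all probes gave 23.2% and 20.4% in terminal end buds and 16.0% and 12.2% in ducts. Their median ratios were -0.29 and -0.36, against 0.72 and 0.79 for the cytosolic set. These genes were taken by symbol, Mrpl or Mrps with a digit, and whether each protein is part of that ribosome was not examined. By that symbol rule, Mrps36 was lowest in terminal end buds at -1.35, and Mrpl52 highest at 1.08. Against ducts, terminal end buds had 4 higher and 4 lower, where all probes gave 8.32% and 10.4%. No test set one list against the other.

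Factors that work with the cytosolic ribosome rose over stroma more often than they fell. Fau, which encodes a ubiquitin-like protein fused to small subunit protein S30, was the measured one of 3 ribosome components under other symbols, and rose to 1.07 in terminal end buds and 0.95 in ducts. The hand-written list for translation elongation had 12 measured members, not all of them elongation factors. Etf1 and Gspt1 act in termination, Eef2k inhibits elongation, and Eef1e1 belongs to the aminoacyl-tRNA synthetase complex. Relative to stroma, 9 of the 12 were called above and 1 below in the end buds, and 5 above in ducts. The 4 called higher in terminal end buds than in ducts were Eef1a1, Eef1e1, Eif5a and Gspt1. Eef1a1, which brings aminoacyl-tRNA to the ribosome, was at 2.25 in terminal end buds and 1.43 in ducts (difference 0.83, limma adjusted p = 0.0314), and Eef2, the translocation factor, at 0.73 and 0.42, of which the duct value did not pass. For the elongation and initiation lists, the background in terminal end buds was 23.2% of probes rising and 20.4% falling over stroma. In ducts the background was 16.0% and 12.2%. Terminal end buds exceeded ducts for 8.32% of the probes and were below them for 10.4%. Of 31 initiation factors, 16 rose and 4 fell in terminal end buds and 13 rose and 4 fell in ducts. Eif3i at 0.96 and Eif3f at 0.93 were the highest in terminal end buds, and Eif3j1 at -0.59 the lowest. The median ratios of these lists, 0.43 and 0.26 in terminal end buds and 0.14 and 0.15 in ducts, were below those of the ribosomal proteins.

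Of 46 measured ribosome biogenesis genes, terminal end buds had 27 higher and 4 lower than stroma, and ducts had 17 higher and 2 lower. Against ducts, terminal end buds had 15 higher and 3 lower, where all probes gave 8.32% and 10.4%. Fbl, the methyltransferase of ribosomal RNA, was at 1.21 in terminal end buds and 0.44 in ducts (difference 0.77, limma adjusted p = 0.000116). Npm1, a nucleolar chaperone, was at 1.23 and 1.04 and did not differ past the threshold (limma adjusted p = 0.701). Ncl, a nucleolar RNA-binding protein, was at -0.47 in terminal end buds and 0.27 in ducts (difference -0.74, limma adjusted p = 1.53e-05), 1 of the 3 lower genes. Of 14 measured growth regulators of these genes, 5 were above and 2 below stroma in terminal end buds, and 1 was above and 3 below in ducts. All probes gave 23.2% and 20.4% in terminal end buds and 16.0% and 12.2% in ducts, so these few genes lie near the background. Myc, a transcription factor that drives ribosome production, was at 1.08 and 0.86, both called, and Mycn at 0.67 in terminal end buds (called) and 0.07 in ducts. Mtor, the kinase upstream of terminal oligopyrimidine messengers, was lower than stroma in both, at -1.08 and -0.62.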

How the data were processed

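RNA of microdissected mammary epithelium and distal stroma was compared on 12 two-colour arrays, 6 per structure. The deposited values are log ratios of Cy5 (epithelium) over Cy3 (stroma), taken as log2; the dyes are per the labels, with log base, background correction and normalization by the authors not given in the sources used here. Array medians of 0.01 to 0.023 show values already centred. Spot intensities and depth were not used here. The table holds 17589 probes and 129 missing values; all probes had values on at least 4 arrays a group, so 0 were left out, and member probes lacked none.

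A single fit of both group means was made with limma 3.58.1 in R 4.3.3 (moderated test, two-sided, Benjamini-Hochberg over all 17589 probes, threshold 0.05). Terminal end bud over duct is the difference of the means, and each mean was tested against 0 for stroma. A gene was read from the probe with values on most arrays, then the first in the table. Tested on simulated data, 200 changed among 17589 probes, it gave these recoveries: between structures 72%, 89% and 100% of changes of 0.5, 1 and 2 were recovered. Unchanged probes gave 11 false calls. The simulated noise was independent between probes and equally wide in both structures, and far fewer probes changed than were called here. These recoveries thus leave out the correlation of members and the wider terminal end bud arrays. Named members were the 6 highest and 6 lowest of each comparison, called genes up to 12, paralogues with parents and the stalk. Members and lists were chosen with earlier results of these data known, and marker and translation lists were written by hand. Alternatives covered centring, scaling, probe filters, variance settings, array weights, slide groups and each array left out. Symbols come from the platform annotation, and all 79 member probes matched RefSeq with 0 symbols changed. Promoters are RefSeq's.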

Additional observations from a re-analysis of the deposited data

Results flagged for a closer look

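In 15 of 126 gene and structure groups of 6 arrays, the array at one end lay far from the other 5, by a gap past Dixon's critical share of the group's range, where chance gives about 5% of groups. Genes are not independent, since they share arrays, and 9 of the 15 come from replicate 2 of either structure. On terminal end bud replicate 2, Rpl12 read 1.69 (group median 0.65), Rpl26 1.78 (0.49), Rps2 0.82 (-0.02) and Rpsa, the laminin receptor precursor of the small subunit, 1.09 (0.06). On duct replicate 2, Rpl22 read 1.33 (median 0.88), Rps10 2.04 (1.27), Rps2 1.69 (0.07), Rps7 1.57 (1.03) and Rpsa 2.07 (0.04).

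On other arrays, low values stood out for Rplp2 at -2.42 (median -0.11) and Rpl3l at -0.96 (-0.01) on terminal end bud replicate 3, and for Rpl30 at -0.59 (0.10) on terminal end bud replicate 1. Rps24 was high at 1.79 (0.17) on terminal end bud replicate 6. In ducts, Rpl11 read -1.04 (median -0.16) on replicate 5 and Rpl27a -1.07 (0.52) on replicate 3. What these arrays have in common was not tested.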

How the results depend on the processing

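No sign of a called value turned under any alternative run. Between terminal end buds and ducts, the 10 genes higher (10 probes) became 6 (6 probes) under quantile normalization, 6 (6) with a common median absolute deviation and 5 (5) on slides up to 193 alone, where the 6 lower genes (17 probes) became 3 (9). Both scalings narrow the wider terminal end bud arrays, and slides up to 193 leave 2 arrays a group. Over stroma, the 2 genes lower in ducts (2 probes) became 4 (4) under quantile normalization and 0 (0) on slides up to 193, and the 3 lower in terminal end buds (3 probes) became 1 (1) there. Many of the genes called above stroma in ducts, and some in terminal end buds, lost the call on slides up to 193. Rpl12, Rpl19 and Rps27 lost it in both structures, with ratios of 0.84 to 1.58 and limma adjusted p of 0.0521 to 0.231. In ducts Rpl23, Rpl27a and Rpl38 gained a call there. The duct median over stroma was 0.953 under quantile normalization against 0.791.

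Leaving out each array in turn, genes higher in terminal end buds than in ducts numbered 9 to 13 (probes 9 to 13) and lower 5 to 9 (probes 16 to 20), with a median difference of -0.039 to 0.105. Over stroma, terminal end buds had 42 to 46 genes higher (probes 57 to 61), 2 to 3 lower (probes 2 to 3) and a median of 0.54 to 0.79, and ducts had 42 to 45 higher (probes 58 to 61), 2 to 3 lower (probes 2 to 3) and a median of 0.747 to 0.856. The labels pair no arrays, but each terminal end bud slide has a duct slide of consecutive number. With these pairs as a block, an alternative added after seeing the data, 11 genes (11 probes) were higher and 8 (20 probes) lower, where all probes gave 7.83% and 10.5%. All 16 calls were among them, with Rps13, Rpl26 and Rpl7 (adjusted p of 0.0383, 0.0454 and 0.0192) added. Deviations from the group means correlated at -0.06 to 0.28 within pairs, and 3 of 6 terminal end bud arrays correlated best with their own pair. Without intensities, signal over background could not be judged.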
